A study of Mus musculus with 2 samples.

Results

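The muscle, liver and gut, and neural marker miRNAs are microRNAs (miRNAs) whose abundance is known to be strongly skewed to particular organs, and they were followed here in vesicles shed by fat cells. They were chosen by name: 4 muscle entries (mmu-miR-1, mmu-miR-133a, mmu-miR-133b and mmu-miR-206), 3 liver and gut entries (mmu-miR-122, mmu-miR-192 and mmu-miR-194) and 3 neural entries (mmu-miR-9, mmu-miR-124 and mmu-miR-128), without their star strands. These 10 entries are among 567 mouse miRNA entries on the array, and each had 2 probes of 10 spots, or 200 spots per array in all.

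Vesicles from medium of day 8-10 cells were set against vesicles from medium of day 2-4 cells, with 1 one-colour Agilent array per window. The cells were 3T3-L1 (CL-173), a clonal mouse preadipocyte line. All were kept in high-glucose DMEM with 10% FCS and had received the same inducers, namely 3-isobutyl-1-methylxanthine at 0.5 mM, dexamethasone at 0.25 µM and insulin at 10 µg/ml. The medium had been conditioned for 48 h, vesicles were pelleted in an ultracentrifuge, and 100 ng of total RNA was labelled with Cy3. No array of unconditioned medium was analysed here, so a part played by serum RNA was not tested. With 1 array per window no test between windows was possible, and window, vesicle preparation and hybridisation cannot be told apart. All SDs and SEs below are between spots of 1 array and are technical only. Fewer vesicles carrying a miRNA and fewer copies per vesicle cannot be told apart in such bulk RNA.

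As background, a miRNA pairs with messenger RNAs mainly through its seed, bases 2 to 8, and represses them. miR-1, miR-133 and miR-206 are induced by myogenic transcription factors such as MyoD. miR-122 dominates the miRNA pool of hepatocytes, and miR-192 and miR-194 are made from shared precursor transcripts in liver, intestine and kidney. miR-9 and miR-124 drive neuronal differentiation, and miR-128 is enriched in brain but is also made in other tissues.

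RefSeq mature sequences (GRCm38.p6) are shown for 6 of the 10 entries, with the seed in capitals, 5′ to 3′. Those of miR-1, miR-133a, miR-122 and miR-124 are not reported here. Of the sequences shown, the first group holds the detected entries, miR-192, miR-194 and miR-128, with miR-215 beside them as the closest relative of miR-192. The rest are miR-206, which lay above the negative controls without counting as detected, and miR-133b and miR-9, which did not leave the range of the negative controls.
miR-192-5p: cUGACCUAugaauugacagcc
miR-215-5p: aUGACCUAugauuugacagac
miR-194-5p: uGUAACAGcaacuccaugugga
miR-128-3p: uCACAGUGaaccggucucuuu
miR-206-3p: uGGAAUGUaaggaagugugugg
miR-133b-3p: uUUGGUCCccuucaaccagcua
miR-9-5p: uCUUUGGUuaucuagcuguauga

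miR-192 and miR-215 share their seed and differ at 3 positions counted from the 5′ end (C1A, A12U and C20A, with the miR-192 base first). The names table of GRCm38.p6 has Mir192 beside Mir194-2 on chromosome 19, and Mir194-1 beside Mir215 on chromosome 1, inside Iars2, an aminoacyl-tRNA synthetase gene. Mir206 and Mir133b lie on chromosome 1 inside the long noncoding RNA gene Lincmd1, known for its role in muscle differentiation. Mir128-1 lies inside R3hdm1 on chromosome 1 and Mir128-2 inside Arpp21 on chromosome 9, so the miR-128 signal cannot be assigned to 1 locus. The mature miR-194 sequence is the same for Mir194-1 and Mir194-2, so the miR-194 signal cannot be assigned to 1 locus either.

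The 10 entries fell into 3 levels when their spots were set against the 672 negative-control spots of each array. The processed intensity (spot brightness after background subtraction, so that dim spots can be negative) had a median of -0.28 over those controls at day 8-10 and -0.23 at day 2-4. Its 99th percentile was 2.84 at day 8-10 and 2.69 at day 2-4. A first level, miR-192, miR-194 and miR-128, held probes that the scanner software found well above background in most spots. A second level, miR-206 and miR-122, held spots above the 99th percentile of the controls without meeting that rule. The last level, miR-1, miR-133a, miR-133b, miR-9 and miR-124, had 0 spots above that percentile on either array, which does not show that these miRNAs were absent.

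**Figure D1:**
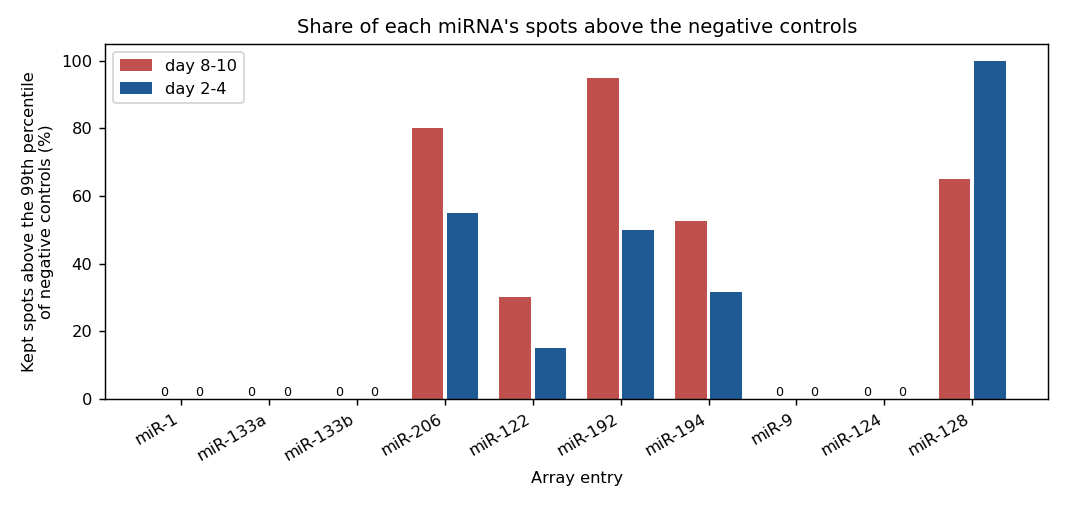
Share of the kept spots of each entry (percent, y axis) that lay above the 99th percentile of the negative-control spots of the same array, with day 8-10 (red) left of day 2-4 (blue) for each entry on the x axis. miR-192 reached 95% at day 8-10 and 50% at day 2-4, miR-128 reached 65% at day 8-10 and 100% at day 2-4, and miR-1, miR-133a, miR-133b, miR-9 and miR-124 stood at 0 on both arrays.

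A probe was counted as detected when more than 0.5 of its kept spots were well above background, and an entry when at least 1 probe was. By this rule 3 of the 10 entries were detected at day 8-10 (miR-192, miR-194 and miR-128) and 2 at day 2-4 (miR-192 and miR-128). Over all mouse entries, 29.3% were detected at day 8-10 and 27.5% at day 2-4. Under this rule the share among these tissue markers was thus close to that of the array as a whole, and it differed under other rules given below. No mouse spot was saturated on either array. Of markers fitting the labelled cells, the fat cell and fibroblast entries miR-378, miR-143, miR-199a-5p and miR-214 were detected on both arrays, 4 of 4. The blood and serum entries miR-451, miR-486 and miR-223 were detected on both arrays too, 3 of 3. Both lists were short and chosen with earlier results of these data known, so these counts do not test what the cells were. The software's gene signals, summed over those 3 blood entries, came to 908 at day 8-10 and 998 at day 2-4. Nearly all of this was miR-451, at 885 at day 8-10 and 970 at day 2-4. The matching sums over the 4 fat cell and fibroblast entries were 304 at day 8-10 and 582 at day 2-4. These entries did not move together. At day 8-10 against day 2-4, miR-378 stood at 120 against 53.6 and miR-143 at 26.3 against 17.5. In the same order, miR-199a-5p stood at 79.7 against 238 and miR-214 at 78.3 against 273. The part of the blood entries in any signal described here was not tested.

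Among the liver and gut entries, miR-192 was brighter at day 8-10 on both of its probes, with no overlap between the spots of the windows. Its longer probe (listed in the files as a stretch of 19 bases on chromosome 19, 6264859 to 6264877, with no build named there) averaged 10.4 ± 1.08 intensity units at day 8-10 and 5.31 ± 0.469 at day 2-4 (SD over 10 spots each). The spots ran from 8.74 over a median of 10.3 to 12.1 at day 8-10, against 4.65, 5.51 and 5.84 at day 2-4, and the highest day 2-4 spot lay below the lowest day 8-10 spot. All 10 spots were well above background at day 8-10, against 6 of 10 at day 2-4.

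The shorter probe of miR-192, listed 1 base shorter, was dimmer but moved the same way. It averaged 3.59 ± 0.672 at day 8-10 and 1.01 ± 1.07 at day 2-4, with 9 spots above the control percentile at day 8-10 and 0 at day 2-4. The lowest spot of this probe was 2.80 at day 8-10, above the highest at day 2-4, 2.27. Spot by spot, all 10 positions were brighter at day 8-10 for each probe. The shorter probe had no spot well above background on either array, so it did not enter the fold below.

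After each array was divided by the 75th percentile of its own signals over 279 jointly detected probes (95.2 at day 8-10 and 108 at day 2-4), miR-192 was 2.20-fold higher at day 8-10. Its log2 difference was 1.14, with an SE over spots of 0.059. Of the 145 entries detected on both arrays, 18 had a larger difference. The rule for a higher entry, at least 2-fold and more than 2 SE over spots, was met by 15.9% of those 145 entries, and by 1 of the 2 marker entries detected on both arrays. The matching rule for lower entries was met by 7.59% of the 145 and by none of the marker entries. The entries whose log2 differences lay closest to that of miR-192 were let-7b (1.12) and miR-98 (1.17), a likeness that rests on 2 arrays only.

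The 2-fold mark was not kept in every processing. The log2 difference of miR-192 was 0.63 with the 75th percentile over all probes, 0.77 with quantile normalization and 0.95 without scaling. With normexp background correction it was 0.22, but the offset of 50 added there exceeds the signals of these entries several times over and by construction draws their differences towards 0. It stayed above 0 in all 10 settings tried. The median log2 difference over the entries detected on both arrays was 0.20, and it came to -0.30 with the 75th percentile over all probes. Relative to that median, miR-192 stood 0.94 higher under each of these 2 scalings and 0.099 higher with normexp. The 2 scalings give the same value by construction, since a scaling factor shifts all log2 differences alike.

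**Figure D2:**
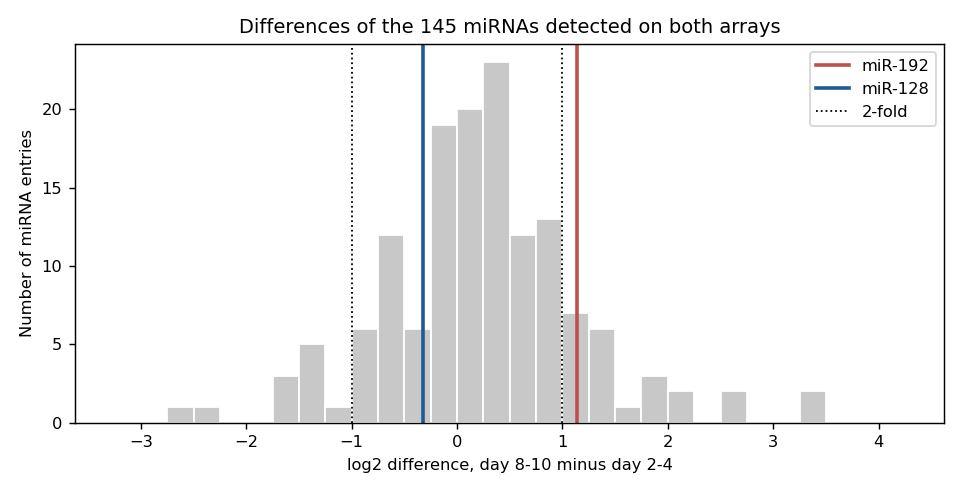
Histogram of the log2 difference, day 8-10 minus day 2-4 (x axis), over the 145 miRNA entries detected on both arrays (number of entries, y axis), with lines at miR-192 (red) and miR-128 (blue) and dotted lines at 2-fold. miR-192, at 1.14, lies just past the upper 2-fold line, and miR-128, at -0.33, lies between the lines.

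miR-194, which in liver and gut is made together with miR-192, gave more signal at day 8-10 on its longer probe. This probe (a stretch of 16 bases on chromosome 1, 187137210 to 187137225, build as above) averaged 5.96 ± 1.17 at day 8-10 over 9 kept spots and 2.94 ± 0.993 at day 2-4 over 10 spots (SD). The spots ran from 3.98 over a median of 6.22 to 7.85 at day 8-10, against 1.49, 2.96 and 4.31 at day 2-4, so the 2 arrays overlapped at the edges. In all 9 positions kept on both arrays the day 8-10 spot was the brighter one.

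Well above background were 6 of the 9 spots at day 8-10 and 0 of 10 at day 2-4, so miR-194 counted as detected at day 8-10 only. Its signal was therefore given as a lower bound under the main scaling, at least 1.40-fold higher at day 8-10. This bound set the plain mean of the day 8-10 spots over the lowest detected probe of the day 2-4 array. The value was 1.46-fold with dim day 8-10 spots raised to the lowest detected probe of their own array, which lifts it. Of the 21 entries detected only at day 8-10, 38.1% had a value of at least 2-fold by that last calculation, and miR-194 was not among them. By the same calculation 19 of the 21 had a larger value than miR-194. With the 75th percentile over all probes that calculation gave 1.03-fold for miR-194, so the size of the bound depends on the scaling. The shorter probe averaged 1.26 ± 1.11 at day 8-10 over 10 spots and 0.901 ± 0.874 at day 2-4 over 9 kept spots. It was brighter at day 8-10 in 5 of 9 positions, so the 2 probes of miR-194 did not show the same contrast. The software's own flag also had miR-194 detected at day 8-10 and undetected at day 2-4, with gene signals of 4.81 ± 1.10 at day 8-10 and 2.54 ± 0.999 at day 2-4 (the software's error).

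miR-215, which shares the seed of miR-192 and is the neighbour of Mir194-1, was not detected on either array. None of its kept spots lay above the control percentile, and its gene signal was -0.15 ± 1.02 at day 8-10 and -0.71 ± 0.976 at day 2-4.

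miR-122, which in hepatocytes supports cholesterol and lipid synthesis, lay near the upper edge of the negative controls on both arrays. Its longer probe averaged 2.93 ± 1.03 at day 8-10 and 2.45 ± 1.01 at day 2-4 (SD over 10 spots each). The spots ran from 1.22 over a median of 3.18 to 4.04 at day 8-10, against 1.11, 2.35 and 4.25 at day 2-4, and the arrays overlapped almost completely. Above the control percentile were 6 spots at day 8-10 and 3 at day 2-4. The shorter probe stayed lower, at 0.738 ± 1.07 at day 8-10 and 0.900 ± 0.701 at day 2-4, with 0 spots above that percentile on either array. No spot of miR-122 was well above background, and no fold was computed.

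Each of these entries had probes 1 base apart. For miR-192, miR-194 and miR-128 only the longer probe met the detection rule on at least 1 array, so their detected values rested on it. In the 127 detected entries of the array with such a pair, the longer probe was the brighter one in 96.1% at day 8-10 and in 96.9% at day 2-4. miR-192, miR-194 and miR-128 followed that pattern on both arrays.

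**Figure D3:**
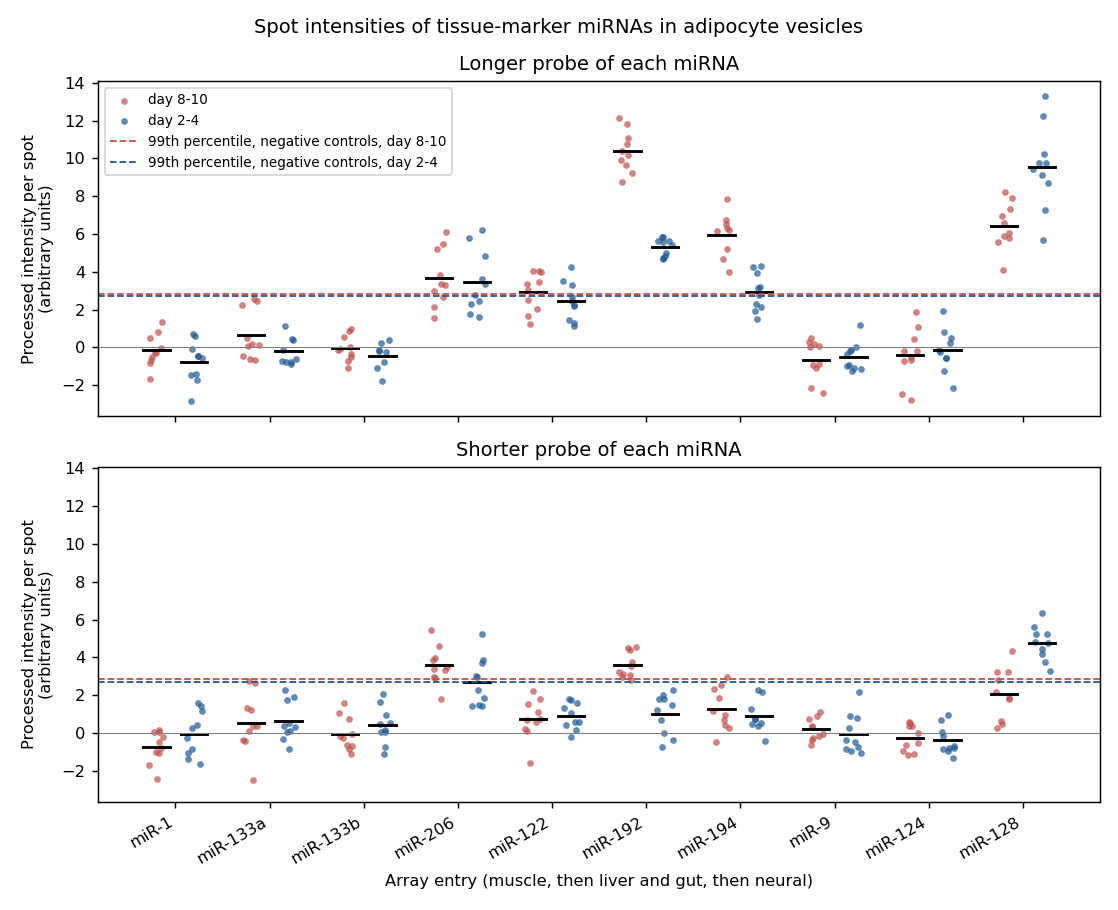
Processed intensity of every kept spot (y axis, arbitrary units, linear) for the longer probe (upper panel) and the shorter probe (lower panel) of each entry, with day 8-10 (red) left of day 2-4 (blue), black bars at the mean over spots and dashed lines at the 99th percentile of the negative controls. Spots of miR-192 do not overlap between the arrays on either probe, those of miR-128 are mostly brighter at day 2-4, and those of miR-1, miR-133b, miR-9 and miR-124 scatter around 0.

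Among the neural entries only miR-128 was detected, and its signal was lower in the day 8-10 vesicles on both probes. The longer probe (a stretch of 20 bases on chromosome 1, 130098982 to 130099001, build as above) averaged 6.44 ± 1.22 at day 8-10 and 9.55 ± 2.18 at day 2-4 (SD over 10 spots each). The spots ran from 4.09 over a median of 6.31 to 8.21 at day 8-10, against 5.66, 9.60 and 13.3 at day 2-4, so the arrays overlapped. The day 8-10 spot was the dimmer one in 9 of 10 positions.

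The shorter probe of miR-128 averaged 2.07 ± 1.34 at day 8-10 and 4.77 ± 0.912 at day 2-4, and all 10 positions were dimmer at day 8-10. It had 0 spots well above background at day 8-10 and 4 at day 2-4. This probe therefore missed the detection rule on both arrays, and the level of miR-128 was taken from the longer probe alone. By the software's gene signal, which sums the probes, miR-128 stood at 5.67 ± 1.12 at day 8-10 and 9.47 ± 1.21 at day 2-4.

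After scaling, the log2 difference of miR-128 was -0.33 (SE over spots 0.13), a signal 1.26-fold higher at day 2-4, which is less than 2-fold. Of the 145 entries detected on both arrays, 31 had a lower value. The closest differences were those of let-7e (-0.39) and miR-685 (-0.27). The value was -0.77 with the software's gene signal and -0.84 with the 75th percentile over all probes. It was -0.016 with all probes averaged, where the floors of the 2 arrays largely set it. With normexp it came to 0.030, a value that the offset of 50 leaves near 0 by construction, so its sign is not a measured change of direction. Relative to the median of the entries detected on both arrays, miR-128 stood at -0.53 in the main setting and at -0.091 with normexp.

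**Figure D4:**
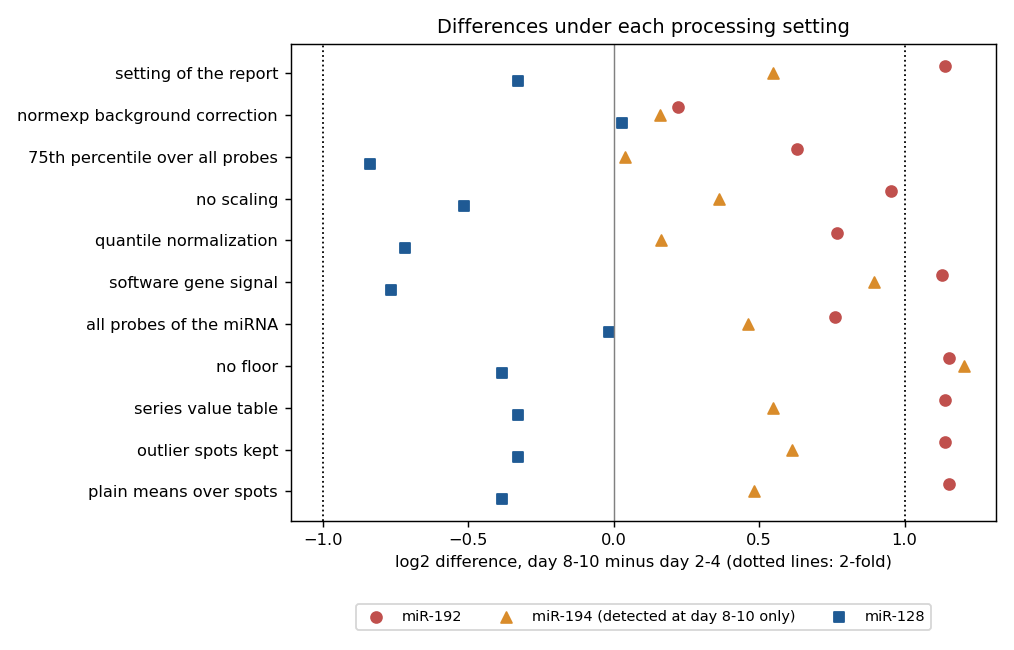
log2 difference, day 8-10 minus day 2-4 (x axis), of miR-192 (circles), miR-194 (triangles) and miR-128 (squares) under the setting of the report and 10 other settings (y axis), with dotted lines at 2-fold. miR-192 runs from 0.22 to 1.15 and stays above 0, and miR-128 runs from -0.84 to 0.030. miR-194 was undetected at day 2-4, so its points set a detected signal against the floor or, with no floor and with the software gene signal, against an undetected signal. With normexp the offset of 50, and with all probes the floors of the 2 arrays, largely set the points.

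miR-9, which acts in neural progenitors, stayed in the range of the negative controls. Its longer probe averaged -0.65 ± 1.02 at day 8-10 and -0.49 ± 0.748 at day 2-4, and its shorter probe 0.190 ± 0.590 at day 8-10 and -0.042 ± 1.04 at day 2-4. Its brightest spot was 1.12 at day 8-10 and 2.14 at day 2-4. miR-124, known for repressing the splicing regulator Ptbp1 in neurons, gave the same picture: the longer probe averaged -0.42 ± 1.43 at day 8-10 and -0.15 ± 1.13 at day 2-4. Its shorter probe averaged -0.26 ± 0.705 at day 8-10 and -0.39 ± 0.742 at day 2-4. Neither entry had a spot well above background on either array.

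Among the muscle entries none was detected, but miR-206 differed from the rest. miR-206, the skeletal-muscle relative of miR-1 and known to share its seed, averaged 3.66 ± 1.49 on the longer probe at day 8-10 and 3.47 ± 1.64 at day 2-4 (SD over 10 spots each). The spots of that probe ran from 1.56 over a median of 3.32 to 6.08 at day 8-10, against 1.62, 3.06 and 6.21 at day 2-4. Its shorter probe averaged 3.57 ± 0.988 at day 8-10 and 2.72 ± 1.28 at day 2-4. The windows overlapped on both probes.

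Over both probes, 16 of 20 spots of miR-206 lay above the control percentile at day 8-10 and 11 of 20 at day 2-4. At day 8-10 that share exceeded the share in 399 of the 401 undetected entries, and at day 2-4 in 397 of 411. Only 3 of 20 spots were well above background on each array, short of the rule used here. The software's own flag, a looser criterion that marked 34.2% of all mouse entries at day 8-10 and 32.5% at day 2-4, had miR-206 as detected on both arrays. Its gene signal was 4.82 ± 1.08 at day 8-10 and 4.10 ± 1.03 at day 2-4. miR-133b, whose gene lies beside Mir206 in Lincmd1, had a gene signal of -0.065 ± 1.02 at day 8-10 and -0.036 ± 0.976 at day 2-4. The probes of miR-206 are among the short ones, listed at 16 and 15 bases, as are those of miR-194. Whether other RNAs bind the probes of either entry was not tested.

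miR-1, known for repressing the histone deacetylase Hdac4 in muscle, averaged -0.17 ± 0.869 on its longer probe at day 8-10 and -0.77 ± 1.10 at day 2-4. On its shorter probe it averaged -0.74 ± 0.844 at day 8-10 and -0.035 ± 1.19 at day 2-4. The 2 probes thus moved in opposite directions within the scatter of the negative controls. miR-133a, which restrains serum response factor in muscle, averaged 0.640 ± 1.28 on its longer probe at day 8-10 over 10 spots, against -0.21 ± 0.721 at day 2-4 over 9 kept spots. The shorter probe of miR-133a averaged 0.542 ± 1.56 at day 8-10 and 0.615 ± 1.03 at day 2-4. It was brighter at day 8-10 in 5 of 10 positions, so it did not show the contrast of the longer probe. The brightest miR-133a spot was 2.75 at day 8-10 and 2.29 at day 2-4, each under the control percentile of its array.

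miR-133b, which with miR-133a is known to repress the brown fat regulator Prdm16, averaged -0.051 ± 0.679 on its longer probe at day 8-10 over 10 spots and -0.46 ± 0.721 at day 2-4 over 8 kept spots. Its shorter probe averaged -0.046 ± 0.892 at day 8-10 and 0.401 ± 0.981 at day 2-4. No spot of miR-1, miR-133a or miR-133b was well above background on either array.

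Other entries of the same tissues were likewise undetected by the rule. This held for 4 of 4 further muscle entries (miR-133a*, miR-208a, miR-208b and miR-499), for 5 of 5 further liver, gut and pancreas entries (miR-215, miR-375, miR-216a, miR-216b and miR-217) and for 13 of 13 further neural entries. Most of the array was undetected too, 401 of 567 mouse entries at day 8-10 and 411 of 567 at day 2-4. None of the muscle, liver, gut and pancreas entries in these lists had a spot above the control percentile. Of the neural ones, 4 of 13 had such a spot at day 8-10 and 4 of 13 at day 2-4. In the neural list miR-218, a motor neuron miRNA, had 16 of 20 spots above it at day 8-10 and 9 of 20 at day 2-4. miR-212, an activity-regulated miRNA of neurons, had 8 of 20 at day 8-10 and 9 of 20 at day 2-4. The software flagged miR-212 as detected on both arrays and miR-218 at day 8-10 only.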

How the data were processed

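Each array was read from its scanner file, which per the file headers the authors made in Agilent Feature Extraction, version 9.5.3.1. The deposited intensity has a fitted background surface subtracted and was not normalized between arrays, per the file headers. Deposited flags (0 or 1) mark each spot as well above background, as saturated or as an outlier. The series value table matched this intensity in 12493 of 12493 spots on each array (relative tolerance 1e-04), with medians of 0.646 at day 8-10 and 0.516 at day 2-4. It was linear and not centred.

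Outlier spots were left out (249 at day 8-10 and 237 at day 2-4, of 11340 mouse spots). Spots were scaled, raised to the intensity of the array's lowest detected probe (5.55 at day 8-10 and 4.86 at day 2-4), turned into log2 values and averaged per probe. An entry's level was the mean of those of its probes that either array detected. The calculation was run in Python 3.11.15 and tested on simulated data, and normexp (offset 50) and quantile normalization in limma 3.58.1. All 10 entries were named by rule, with the closest 2 entries by log2 difference. Other entries of the same tissues, none of them detected, were counted, and values were given for miR-215 as the relative of miR-192 and for miR-218 and miR-212. The members, lists and settings were chosen with earlier results of these data known. miR-218 and miR-212 were picked out after their values were seen. The number of arrays limits the precision.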

Additional observations from a re-analysis of the deposited data

How the results depend on the processing

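The log2 difference of miR-192 (1.14) moved by more than the SD over spots with normexp (0.22), the 75th percentile over all probes (0.63), quantile normalization (0.77) and all probes averaged (0.76). The shorter probe of miR-192 lay below the floor on both arrays, so that last value is set by the floors and not by that probe's own signal. The normexp offset of 50 exceeds the signals of these entries and draws their differences towards 0. The count of marker entries at least 2-fold higher at day 8-10 was 1, and it was 0 in those 4 settings and without scaling. The count at least 2-fold lower was 0 in all settings. The value of miR-194 (log2 0.55, and 0.48 from plain means over spots) was 0.16 with normexp, 0.038 with the 75th percentile over all probes, 0.36 without scaling and 0.16 with quantile normalization. It was 0.89 with the software's gene signal and 1.21 with no floor, both ratios to an undetected signal and not bounds. The 0.038 includes the lift from raising dim day 8-10 spots, and plain means were not run with that scaling. The difference of miR-128 (-0.33) was 0.030 with normexp, -0.84 with the 75th percentile over all probes and -0.77 with the gene signal. With all probes averaged it was -0.016, a value largely set by the floors of the 2 arrays. The shifts without scaling and with the 75th percentile over all probes follow from the scaling factors by construction. The cause of the other shifts was not tested. Over all entries, 23 were higher and 11 lower in the main setting, 10 and 29 with the 75th percentile over all probes, and 5 and 5 with normexp.

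Detection depended on the rule. With all kept spots required, 1 of the 10 entries was detected at day 8-10 (miR-192) and 1 at day 2-4 (miR-128). Over all mouse entries that rule detected 27.0% at day 8-10 and 25.2% at day 2-4. With the 99th percentile of the negative controls as the limit, a setting chosen after seeing the data, 5 were at day 8-10 and 4 at day 2-4. Of all mouse entries, 36.3% at day 8-10 and 35.1% at day 2-4 passed that limit. The software's flag gave 4 at day 8-10 and 3 at day 2-4, adding miR-206, against 34.2% and 32.5% of all mouse entries. The flags come from the software, so background correction could not be varied for them. Plain means, also added later, left the difference of miR-192 at 1.15. miR-192 at day 2-4 (5.31) and miR-128 and miR-194 at day 8-10 (6.44 and 5.96) lay close to the lowest detected probes, which limits their folds. No paired analysis was possible because each window had 1 array.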
